A study of Homo sapiens with 12 samples.

Results

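The keratin gene family was followed in C4-2B and 22RV1 cells, which are 2 established human prostate cancer lines. Members were all table entries whose symbol is KRT, a number and at most 1 letter from A to C, without pseudogenes, which gave 54 keratins among 60314 gene symbols in the table of each line. KRT86 was not analysed here. The study measured gene expression by RNA sequencing in 12 libraries, 3 per group. The C4-2B control group was grown for 48 h in glutamine-free RPMI-1640 with fetal bovine serum and L-glutamine added at 2 mM, and the C4-2B 56-mer group received the same with the oligonucleotide 56-mer at 50 nM. The 22RV1 control group and the 22RV1 56-mer group were treated in the same way with the same concentrations. All 12 libraries therefore share the medium and the added glutamine, all carry the genotype label WT, and no group received a control oligonucleotide. The series text calls the libraries biological triplicates. C4-2B is a castration-resistant descendant of the LNCaP line and 22RV1 was established from a human prostate cancer xenograft, so each stands for a single tumour.

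Keratins are the intermediate filament proteins of epithelial cells. A keratin filament is built from pairs of an acidic type I and a basic type II keratin, and neither type forms a filament alone. In the prostate gland the luminal secretory cells contain mainly the type II keratin KRT8 with the type I keratins KRT18 and KRT19, while the basal layer is marked by KRT5 with KRT14 and KRT15. Prostate adenocarcinoma is known for luminal keratins and for the loss of basal keratins.

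Libraries held between 8847368 and 13740386 reads. A library with 0 reads for a gene allows up to 3 reads, which corresponds to 2.54 to 4.10 normalized counts depending on the library. A normalized count is a read count divided by a size factor of its library, and the table of each line was normalized separately, so levels in the 2 lines are given side by side and were not tested against each other. The labelled cell type was checked against marker lists. All 9 prostate luminal markers in the tables passed the filter on low values in both lines, with KLK3 (prostate-specific antigen) at 6426 ± 381 (SD, n = 3) normalized counts in C4-2B controls and FOLH1 (prostate-specific membrane antigen) at 6594 ± 231 (SD, n = 3) in 22RV1 controls. TP63, the defining basal transcription factor, had 0 reads in all 12 libraries, and so did the basal marker DLK1. The other non-keratin basal markers were led by the cadherin CDH3, which had 505 ± 40.3 (SD, n = 3) normalized counts in C4-2B controls and 745 ± 37.3 (SD, n = 3) in 22RV1 controls, and all 7 listed basal markers summed to 891 to 1105 per library in C4-2B and to 1169 to 1302 in 22RV1. Leukocyte markers summed to at most 13.9 normalized counts per library in C4-2B and at most 27.4 in 22RV1. Fibroblast and mesenchymal markers, led by COL1A1, summed to 285 to 453 in C4-2B and to 394 to 521 in 22RV1, and endothelial markers to 84.7 to 231 in C4-2B, with VWF the only one past the filter, and to at most 8.20 in 22RV1. Neuroendocrine markers, led by ENO2, summed to 188 to 243 in C4-2B and to 5671 to 6523 in 22RV1. Of the 9 listed, 2 passed the filter in C4-2B (ENO2 and SYP) and 7 in 22RV1. In 22RV1 controls CHGB had 1161 ± 72.6, SYP 742 ± 104 and CHGA 469 ± 85.7 normalized counts (SD, n = 3 for each).

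Few keratins were expressed. Reads were found for 22 of the 54 keratins in C4-2B and for 23 in 22RV1, and 25 keratins had no read in any library of either line. A keratin counted as expressed in a line when 3 or more of its 6 libraries reached a normalized count of 10. By this filter 9 keratins were expressed in C4-2B, 16.7% of the family, against 27.6% of all symbols. In 22RV1 there were 6, or 11.1% of the family against 34.0% of all symbols. The 6 keratins KRT7, KRT8, KRT10, KRT18, KRT19 and KRT80 passed in both lines. KRT6C, KRT15 and KRT73 passed in C4-2B alone, and 45 keratins passed in neither line. In C4-2B, 13 keratins had reads but stayed below the filter, with values up to 32.2 in a library, and in 22RV1 there were 17 with values up to 11.0.

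The keratins of other epithelia were largely silent. Of the 16 hair keratins analysed, which form the hair shaft, 5 had reads in C4-2B and 7 in 22RV1, none passed the filter, and the highest value in any library was 7.11. Of the 9 keratins listed here under the root sheath of the hair, KRT73 alone passed, in C4-2B. Of the 20 keratins of wounded and stratified epithelia, KRT6C, KRT10 and KRT80 passed in C4-2B, and KRT10 and KRT80 in 22RV1. All 5 simple epithelial keratins, KRT7, KRT8, KRT18, KRT19 and KRT20, had reads in both lines, and KRT20 was the member that did not pass.

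Expressed and silent keratins lie in the same gene clusters. In the RefSeq gene order, 25 type II keratins and the type I keratin KRT18 lie together on chromosome 12, and 27 type I keratins and KRT222 lie on chromosome 17. KRT8 and KRT18 sit side by side at the end of the chromosome 12 cluster. KRT80 and KRT7, also expressed in both lines, are neighbours at its other end. KRT8's other keratin neighbour, KRT78, was not expressed in either line. On chromosome 17, the abundant KRT19 lies between KRT15, expressed in C4-2B, and KRT9, expressed in neither line.

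Promoter sequences are given for members with contrasting levels, and no link between sequence and level was tested. RefSeq promoter windows (GRCh38.p14) were matched for 38 of the 54 keratins. The 60 bases before the start are given 5′ to 3′ for the abundant KRT8 (chr12:52926470-52926529, minus strand), the moderately expressed KRT10 (chr17:40822615-40822674, minus strand) and the silent KRT5 (chr12:52520395-52520454, minus strand), with capitals marking the TATA box letters TATAAA.
KRT8: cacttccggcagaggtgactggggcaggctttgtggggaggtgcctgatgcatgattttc
KRT10: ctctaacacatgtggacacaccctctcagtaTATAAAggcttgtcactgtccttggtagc
KRT5: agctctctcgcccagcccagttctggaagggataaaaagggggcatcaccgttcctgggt
The letters TATAAA, searched on the coding strand within 45 to 15 bases before the start, were present in 16 of the 38 keratin promoters, or 42.1%, against 2.39% of 35116 promoters in the RefSeq table. KRT10 was the only one of 3 matched expressed keratins with these letters, and 15 of 35 matched keratins that passed in neither line had them. On either strand and anywhere in the 250 bases before the start, the letters were in 55.3% of the keratin promoters and in 10.7% of all. A match describes the letters only, and near matches, such as gataaa in the KRT5 stretch, were neither marked nor counted.

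The luminal keratins carried nearly all keratin reads. KRT8, KRT18 and KRT19 together made up 95.4% ± 0.246 (SD, n = 3) of keratin reads in C4-2B controls and 98.3% ± 0.062 (SD, n = 3) in 22RV1 controls. The mix of the luminal keratins differed between the lines. KRT8 took 44.97% ± 1.07 of keratin reads in C4-2B controls and 63.8% ± 0.648 in 22RV1 controls. KRT18 took 38.3% ± 1.24 and 28.7% ± 0.805, and KRT19 took 12.1% ± 0.207 and 5.70% ± 0.199, each as mean and SD of 3 libraries. For all of these shares the 6 libraries of one line lay entirely apart from the 6 libraries of the other. All keratins together held 0.138% ± 0.003 of the reads of C4-2B controls and 0.122% ± 0.002 of those of 22RV1 controls.

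**Figure D1:**
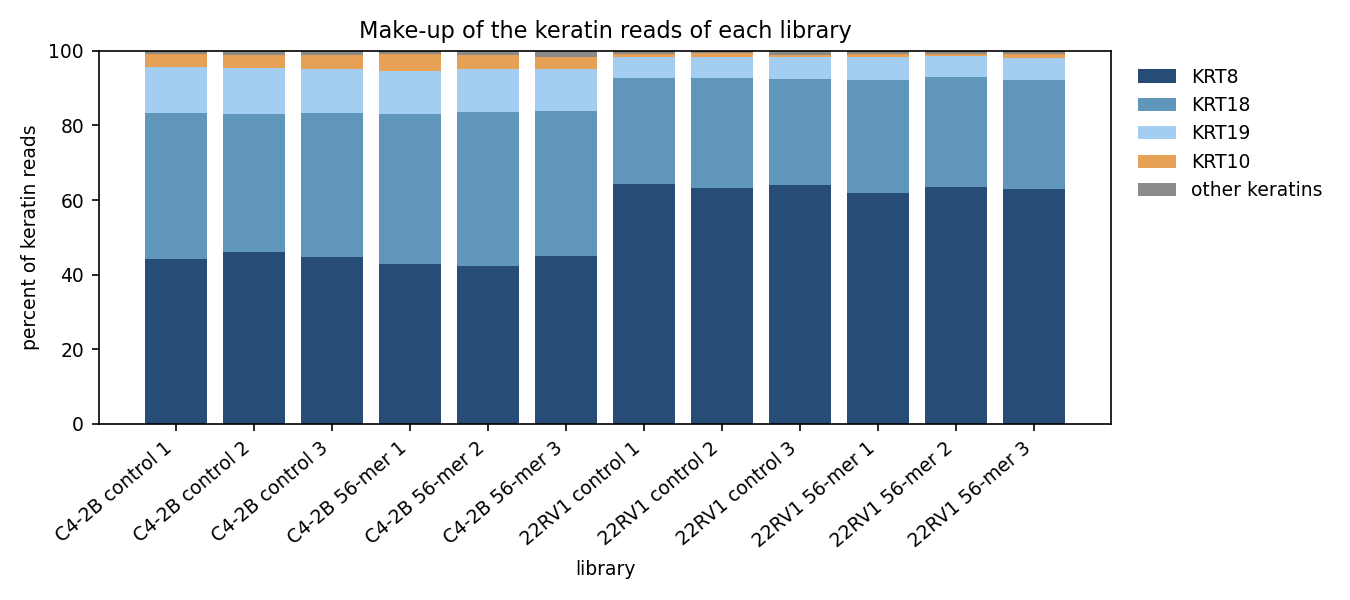
Make-up of the keratin reads of each of the 12 libraries, as percent of keratin reads on the vertical axis, with stacked bars for KRT8, KRT18, KRT19, KRT10 and all other keratins. KRT8 holds 42.4% to 46.2% in the C4-2B libraries and 61.9% to 64.4% in the 22RV1 libraries, in controls and 56-mer libraries alike.

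KRT8, the type II keratin of simple epithelia, had 7296, 7271 and 7058 normalized counts in the 3 C4-2B controls and 8133, 7584 and 7755 in the 3 C4-2B 56-mer libraries. Every C4-2B 56-mer library was above every control. In 22RV1, KRT8 had 9223, 9288 and 9536 normalized counts in controls and 8361, 9891 and 9198 with 56-mer. The lowest and the highest 22RV1 value were both in the 56-mer group, so the groups overlapped.

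KRT18, the type I partner of KRT8, had 6509, 5815 and 6104 normalized counts in C4-2B controls and 7599, 7385 and 6711 in C4-2B 56-mer libraries. All 3 values with 56-mer were above all 3 controls. In 22RV1 KRT18 had 4050, 4367 and 4215 normalized counts in controls and 4081, 4613 and 4272 with 56-mer, and the groups overlapped.

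KRT19, the smallest of the type I keratins and a partner of KRT8 in luminal cells, had 2018, 1929 and 1876 normalized counts in the C4-2B controls, and 2188, 2073 and 1910 in the 56-mer libraries. It had 803, 818 and 882 in 22RV1 controls and 855, 888 and 897 with 56-mer. In both lines the group means were higher with 56-mer and the groups overlapped.

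**Figure D2:**
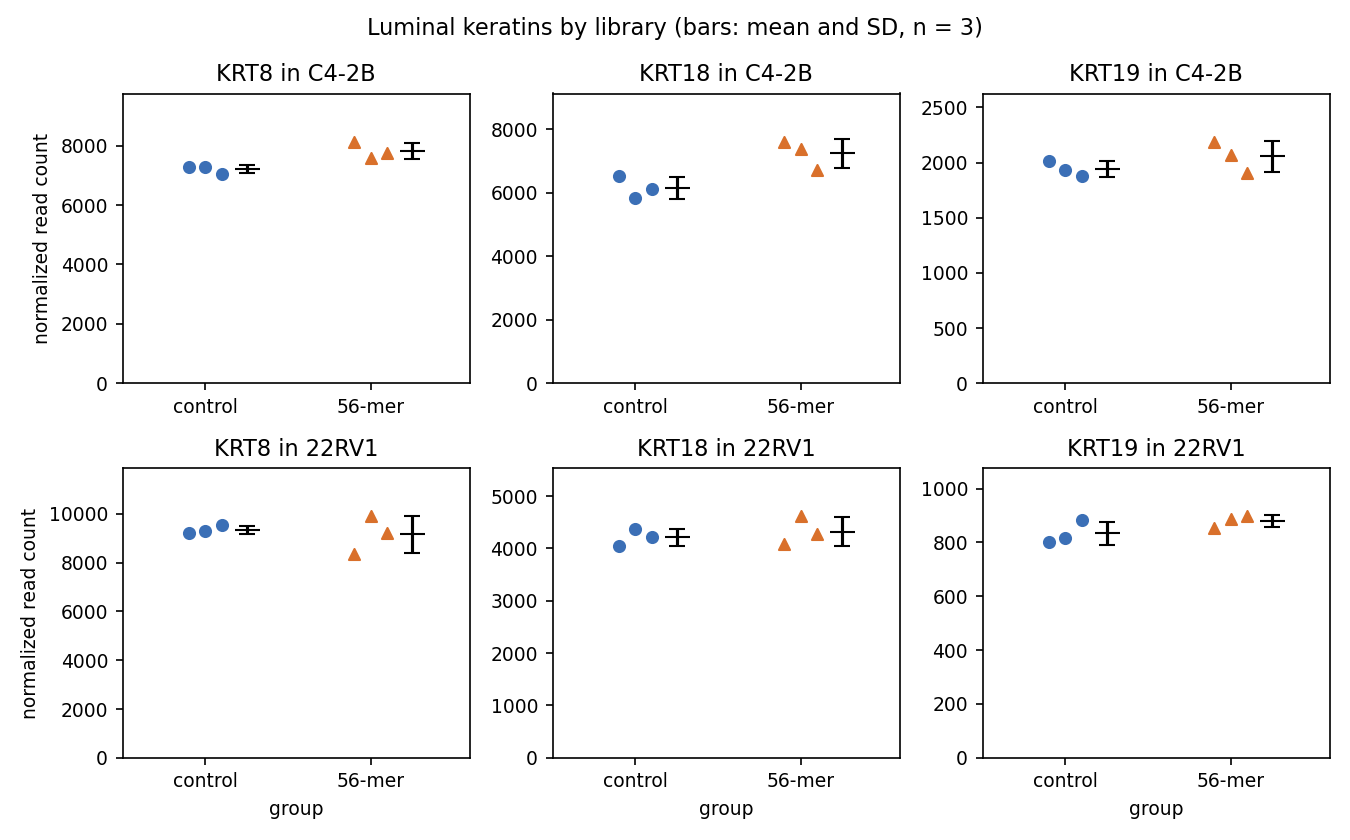
Normalized read counts of KRT8, KRT18 and KRT19 in each library, controls as circles and 56-mer libraries as triangles, with the mean and SD of 3 libraries as bars; axes start at 0. In C4-2B the 56-mer values of KRT8 (7584 to 8133) and KRT18 (6711 to 7599) lie above all controls, and in 22RV1 the groups overlap for all 3 genes.

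Among the basal keratins, KRT5, which pairs with KRT14 in basal cells, had 0 reads in all 12 libraries. KRT14 had 10.7, 9.12 and 3.39 normalized counts in the C4-2B controls, and 4.90, 0 and 3.90 in the 56-mer libraries. In 22RV1 KRT14 had 0, 1.02 and 0 in controls and 6.25, 0 and 4.42 with 56-mer, so most of its values lay near the floor of 3 reads. KRT15, a type I keratin of basal cells, had 6.42, 17.1 and 26.3 normalized counts in the C4-2B controls, and 12.75, 11.5 and 37.0 in the 56-mer libraries. In 22RV1 KRT15 had 11.0, 1.02 and 7.92 in controls and 8.92, 5.47 and 3.54 with 56-mer. KRT14 did not pass the filter in either line and KRT15 passed in C4-2B, and in all of these comparisons the groups overlapped. KRT14 shares long similar stretches with KRT16 and KRT17, so its few reads are uncertain.

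KRT10, a type I keratin that normally appears in differentiating cells of the epidermis, was the most abundant keratin outside the luminal set. Its C4-2B controls had 598.5, 547.5 and 579 normalized counts and the 56-mer libraries 865, 632 and 584, where 56-mer library 1 was the highest and library 3 lay within the control range. In 22RV1 KRT10 had 112, 140 and 107 in controls and 83.9, 91.55 and 128 with 56-mer, with overlapping groups. An exon of KRT10 overlaps the gene TMEM99 on the opposite strand in GENCODE 29, and the sources used here do not give strand use in counting. Reads within the overlap therefore cannot be told apart. TMEM99 had 571 ± 73.8 (SD, n = 3) normalized counts in C4-2B controls and 77.1 ± 22.7 (SD, n = 3) in 22RV1 controls, beside 575 ± 25.8 and 120 ± 17.7 for KRT10. With 56-mer TMEM99 was at 588 ± 29.5 in C4-2B and 76.5 ± 8.80 in 22RV1.

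KRT80, a type II keratin found in many epithelia, had 71.7, 115 and 82.2 normalized counts in the C4-2B controls and 104, 158 and 125 in the 56-mer libraries, with the lowest 56-mer value below the highest control. In 22RV1 it had 28.2 to 39.6 in controls and 23.9 to 39.6 with 56-mer. KRT7, a type II keratin of glandular and transitional epithelia, had 12.3 ± 10.4 (SD, n = 3) normalized counts in C4-2B controls and 71.1 ± 17.8 (SD, n = 3) in 22RV1 controls. With 56-mer KRT7 was at 19.7 ± 9.24 in C4-2B and 80.5 ± 19.6 in 22RV1. KRT7 overlaps the antisense gene KRT7-AS, which had 17.7 ± 6.25 in C4-2B controls and 6.79 ± 1.71 with 56-mer.

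The remaining expressed keratins were near the filter. KRT73, an inner root sheath keratin, had 3.42 to 33.0 normalized counts in the C4-2B controls and 11.7 to 15.3 in the 56-mer libraries. It had 0 reads in 22RV1. An exon of KRT73 overlaps the antisense gene KRT73-AS1, which had 0 to 16.1 in C4-2B controls, 0 to 6.86 with 56-mer, and 0 in 22RV1. Reads within that overlap cannot be told apart. KRT6C, a wound keratin, had 4.24 to 18.2 in C4-2B controls and 9.54 to 19.6 with 56-mer. Its transcript is 95.4% identical to KRT6A and 96.2% to KRT6B over the aligned bases, so reads assigned to KRT6C are uncertain. KRT2, a keratin of the upper epidermis that stayed below the filter and was picked after its values were seen, had the highest value of all keratins below it, with 0.980, 12.4 and 32.2 in C4-2B 56-mer libraries and at most 7.98 in controls.

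**Figure D3:**
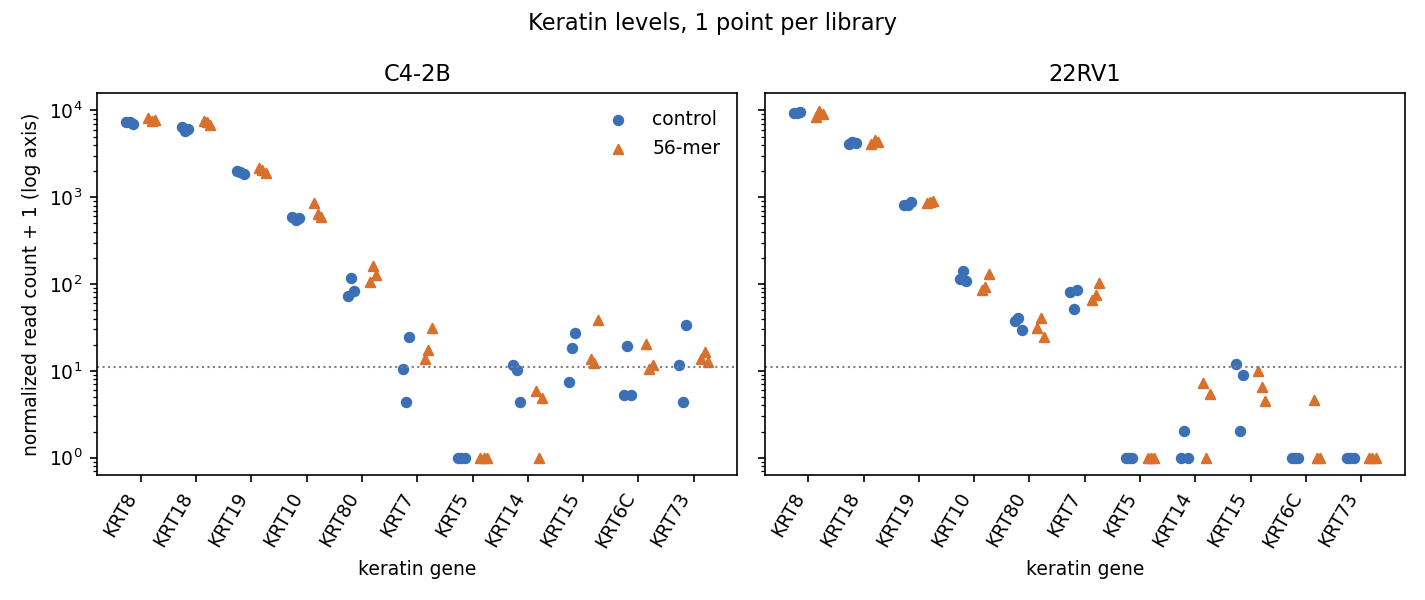
Normalized read count plus 1 on a log axis for 11 keratins in each library of C4-2B (left) and 22RV1 (right), controls as circles and 56-mer libraries as triangles; the dotted line marks the filter of 10 normalized counts. KRT8, KRT18 and KRT19 stand above the other keratins in both lines, KRT5 is at 0 in all libraries, and KRT6C, KRT15 and KRT73 reach the line in 3 or more C4-2B libraries alone.

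Levels within a line were ordered after division by the length of the principal transcript in GENCODE 29, and the order of KRT8 and KRT18 holds for that length only. In C4-2B controls KRT18 had 3932 ± 223 normalized counts per kilobase, KRT8 3391 ± 61.4, KRT19 1396 ± 51.9, KRT10 271 ± 12.1 and KRT80 23.2 ± 5.88 (SD, n = 3 for each). The order from KRT18 to KRT80 held without overlap of the control values. Below KRT80, the keratins KRT7, KRT73, KRT14, KRT6C and KRT15 had 3.17 to 6.99 per kilobase on average and did not differ beyond their spread. In 22RV1 controls KRT8 led with 4397 ± 77.6 per kilobase, followed by KRT18 with 2696 ± 102, KRT19 with 600.4 ± 30.3, KRT10 with 56.4 ± 8.34, KRT7 with 40.5 ± 10.1 and KRT80 with 9.05 ± 1.55 (SD, n = 3 for each), and neighbours in this order did not overlap. On this scale, among symbols with a length and with reads in the line, KRT8 was above 99.2% in C4-2B controls and above 99.7% in 22RV1 controls.

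The balance of KRT8 and KRT18 set the lines apart. Within a library, the log2 ratio of KRT8 to KRT18 reads was 0.23 ± 0.081 in C4-2B controls and 0.12 ± 0.086 in C4-2B 56-mer libraries (SD, n = 3 for each). In 22RV1 it was 1.15 ± 0.054 in controls and 1.08 ± 0.040 with 56-mer. All 6 C4-2B values lay between 0.04 and 0.32 and all 6 22RV1 values between 1.03 and 1.19. The gap between the lines does not depend on the length used, but the sign within a line does. Per kilobase of the principal transcript, with 2126 bases for KRT8 and 1562 for KRT18, the ratio was -0.21 in C4-2B controls and 0.71 in 22RV1 controls. Per coding length, with 1449 and 1290 bases, it was 0.06 and 0.98. Per merged exon length, with 6881 and 3218 bases, it was -0.86 in C4-2B controls and 0.0549 in 22RV1 controls, and -0.0159 in 22RV1 56-mer libraries. Which of both genes was more abundant in C4-2B cannot be settled from these values, and in 22RV1 KRT8 was higher by the transcript and coding lengths but level with KRT18 by the merged exon length. In GENCODE 29 an exon of KRT8 overlaps KRT18 on the opposite strand, and reads in that overlap cannot be told apart.

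Summed by type and per kilobase, type I keratins exceeded type II keratins in C4-2B, with a log2 ratio of type II to type I of -0.71 ± 0.067 in controls and -0.78 ± 0.090 with 56-mer. In 22RV1 the ratio was 0.41 ± 0.047 in controls and 0.33 ± 0.047 with 56-mer (SD, n = 3 for each). These ratios use the principal transcript length only, and whether their sign holds with other lengths was not tested. KRT19 relative to KRT18, per kilobase, had a log2 ratio of -1.49 ± 0.060 in C4-2B controls and -1.65 ± 0.018 with 56-mer, and these groups did not overlap. In 22RV1 the same ratio was -2.17 ± 0.080 and -2.13 ± 0.071, with overlapping groups. Neither this ratio nor the ratio of the types was among the planned measures. How often ratios of other gene pairs separate the groups was not counted. The KRT19 to KRT18 ratio uses the same KRT18 reads as the KRT18 levels above and is not independent of them.

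No keratin passed the test for a change with 56-mer in C4-2B. The test was limma on log2 of the normalized count plus 1, two-sided, fitted over all genes past the filter, with Benjamini-Hochberg adjustment and a threshold of 0.05. Of 16657 genes tested, 0.0660% were called, and of the 9 keratins 0 were. KRT18 had the smallest p. From 6142 ± 349 (SD, n = 3) normalized counts in controls to 7231 ± 463 (SD, n = 3) with 56-mer, its log2 change was 0.23 (SE 0.069, 95% interval 0.09 to 0.38), with an unadjusted limma p of 0.0023 and an adjusted p of 0.334. In the authors' deposited table KRT18 had a log2 change of 0.24 with an unadjusted p of 0.0014, and no keratin there had an adjusted p under 0.05. KRT8 went from 7208 ± 131 (SD, n = 3) to 7824 ± 281 (SD, n = 3), a log2 change of 0.12 (SE 0.063, 95% interval -0.01 to 0.25) with an adjusted limma p of 0.599. KRT19 had a log2 change of 0.08 (SE 0.087, 95% interval -0.10 to 0.26) with an adjusted p of 0.827 by limma.

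The other C4-2B keratins had wider intervals. KRT80 had a log2 change of 0.53 (SE 0.276) and KRT10 of 0.25 (SE 0.139), with adjusted limma p-values of 0.590 and 0.621. Without C4-2B 56-mer library 1 the log2 change of KRT10 was 0.08. The low keratins KRT7, KRT6C, KRT15 and KRT73 had log2 changes of 0.89, 0.75, 0.28 and 0.23 with SE of 0.736 to 0.942, and without 1 library at a time KRT7 ranged from 0.26 to 1.51 (lowest without C4-2B control 2, highest without control 3) and KRT6C from 0.44 (without control 1 or control 3) to 0.94 (without 56-mer library 2). Without control 2, 56-mer library 1 or 56-mer library 3, KRT6C fell below the filter and was not fitted. Its range therefore leaves these fits out. The 95% interval of KRT6C, with all libraries, reached from 0.439-fold to 6.47-fold.

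On the scale of log2 of the normalized count plus 1, all 9 expressed keratins had a positive change in C4-2B, where 48.3% of all genes tested had one, and 54.2% of genes with a control mean of at least 500. With edgeR and with DESeq2 the count was 8 of 9, with KRT73 negative. Without the filter 16 of 22 keratins were positive, where the median log2 change over all 28772 genes was -0.0075. The mean normalized count of KRT73 was 15.7 in controls and 13.2 with 56-mer, and its log2 change was -0.26 in the authors' deposited table. The median of the 9 was 0.25, against -0.01 over all genes tested. KRT8 and KRT18, 2 of the 9, had groups that did not overlap, both with 56-mer higher. Over all genes 14.7% did not overlap, and 7.59% had the 56-mer group entirely above. At an unadjusted p under 0.05 limma had 1 keratin of 9, where 8.92% of all genes passed. Of all 16657 genes edgeR's quasi-likelihood test had 1399 and DESeq2 1317, each with 1 keratin. KRT8, KRT18 and KRT19 have a GC content above that of 80.2% to 88.4% of the genes tested. Across genes, the deviation from the mean of the line correlated with GC content in C4-2B 56-mer libraries 2 and 3 (Spearman 0.305 and 0.318). The correlation was -0.214 to -0.008 in the 3 controls and -0.171 in C4-2B 56-mer library 1, the library with the highest KRT8, KRT18 and KRT19. With transcript length the correlation was -0.332 in that library, -0.107 and 0.012 in 56-mer libraries 2 and 3, and 0.069 to 0.251 in controls. KRT8, KRT18 and KRT19 were longer than 39.0%, 26.2% and 22.9% of the genes tested. The cause of these trends was not tested. After each library was corrected for GC content and length, an alternative chosen after seeing the data, the log2 change was 0.15 for KRT18, 0.07 for KRT8 and -0.01 for KRT19.

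In 22RV1 no keratin passed the test either. Of 20517 genes tested, 0.00975% were called, and of the 6 keratins 0 were. KRT18 had a log2 change of 0.04 (SE 0.064, 95% interval -0.09 to 0.17), KRT8 of -0.03 (SE 0.056, 95% interval -0.15 to 0.08) and KRT19 of 0.08 (SE 0.096, 95% interval -0.12 to 0.27). These intervals exclude changes above 1.21-fold for KRT19 and above 1.12-fold for KRT18. KRT10 had a log2 change of -0.26 (SE 0.225), KRT80 of -0.17 (SE 0.385) and KRT7 of 0.18 (SE 0.271). All 6 adjusted limma p-values were 0.9996. The changes were positive for 3 of 6 keratins, where 49.4% of all genes tested were positive (52.5% of those with a control mean of at least 500), with a median of 0.001 against -0.003 over all genes, and no keratin had separate groups, where 9.03% of all genes did and 4.45% had the 56-mer group entirely above. At an unadjusted p under 0.05 limma, edgeR and DESeq2 each had 0 keratins. Of all 20517 genes 3.91% passed in limma, 763 genes in edgeR and 662 in DESeq2. In the authors' deposited table for 22RV1, 0 keratins had an adjusted p under 0.05.

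**Figure D4:**
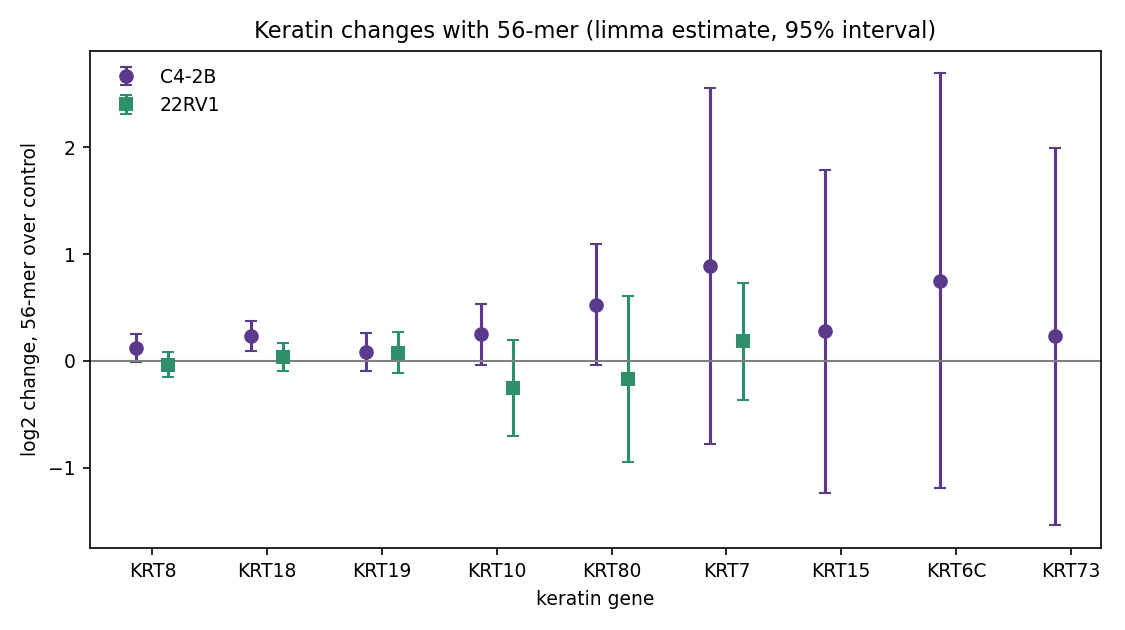
Log2 change of 56-mer over control for each expressed keratin, with the limma estimate as a point and its 95% interval as a bar, C4-2B as circles and 22RV1 as squares. All 9 C4-2B estimates lie above 0 on this scale (KRT73 is negative with edgeR and DESeq2), the interval of KRT18 in C4-2B (0.09 to 0.38) is the only one that leaves out 0, and the 22RV1 estimates lie on both sides of 0.

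The difference between the lines was tested directly, as the 22RV1 change minus the C4-2B change in 1 limma fit of all 12 libraries. No gene of 15527 was called (0%), so no keratin was. The difference was -0.20 for KRT18 (SE 0.095, 95% interval -0.40 to -0.0004), with an unadjusted limma p of 0.0496 and an adjusted p of 0.632. For KRT8 it was -0.15 (SE 0.085) and for KRT10 -0.50 (SE 0.263), with adjusted limma p-values of 0.674 and 0.659. KRT80 had a difference of -0.70 (SE 0.466), KRT7 of -0.71 (SE 0.763) and KRT19 of -0.005 (SE 0.119). All 6 were negative, where 48.2% of all genes were. At an unadjusted p under 0.05 limma had 1 of 6 keratins and 7.90% of all genes. Of the same 15527 genes edgeR had 1268, with 0 keratins, and DESeq2 had 1322, with 2 keratins.

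As a share of all reads of a library, keratins held 0.141%, 0.135% and 0.137% in C4-2B controls and 0.157%, 0.150% and 0.144% with 56-mer. Each C4-2B 56-mer library was above each control. In 22RV1 the shares were 0.120%, 0.122% and 0.125% in controls and 0.110%, 0.129% and 0.122% with 56-mer, and the groups overlapped. The luminal part of keratin reads was 94.9% ± 0.392 (SD, n = 3) with 56-mer in C4-2B and 98.4% ± 0.228 (SD, n = 3) with 56-mer in 22RV1, and in both lines these groups overlapped with their controls.

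Keratin pseudogenes are copies of keratin genes, most of them of KRT8 and KRT18, and reads can be assigned to them in place of the parent. The tables hold 147 keratin pseudogene entries, of which 50 derive from KRT8, 67 from KRT18 and 5 from KRT19. For every 100 KRT8 reads there were 2.69 ± 0.129 reads in KRT8 pseudogenes in C4-2B controls and 4.10 ± 0.635 in 22RV1 controls. For KRT18 the values were 0.828 ± 0.234 and 2.98 ± 0.548 (SD, n = 3 for each). By control mean the highest KRT8 pseudogene was KRT8P12 in C4-2B and KRT8P30 in 22RV1, though in 22RV1 control 1 and 56-mer library 3 KRT8P12 was above KRT8P30. KRT8P12, on chromosome 3, had 158 ± 1.49 normalized counts in C4-2B controls and 101 ± 44.3 in 22RV1 controls. KRT8P30, on chromosome 2, had 138 ± 19.5 in 22RV1 controls and 118 ± 13.0 with 56-mer (SD, n = 3 for each), and 0 reads in all 6 C4-2B libraries. By control mean the highest KRT18 pseudogene was KRT18P5 in both lines, with at most 19.5 normalized counts in a library. In 22RV1 it did not differ beyond its spread from KRT18P6, with 16.2 ± 4.21 against 15.6 ± 9.71 in controls (SD, n = 3 for each). The highest pseudogenes of KRT19 were KRT19P1 in C4-2B and KRT19P2 in 22RV1, with at most 12.3.

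How far KRT8P12 and KRT8P30 differ from the parent can be seen in 60 coding bases of KRT8, transcript positions 1223 to 1282 in GENCODE 29. In the aligned stretches of both pseudogenes capitals mark bases that differ from KRT8.
KRT8: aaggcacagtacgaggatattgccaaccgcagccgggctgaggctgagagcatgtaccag
KRT8P12: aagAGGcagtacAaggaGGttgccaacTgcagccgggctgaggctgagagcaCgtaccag
KRT8P30: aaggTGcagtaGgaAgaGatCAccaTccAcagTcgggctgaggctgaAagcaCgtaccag
KRT8P12 differs from KRT8 at 8 of these bases and KRT8P30 at 12. Over the whole aligned length, KRT8P12 was 86.3% identical to KRT8 across 1461 columns and KRT8P30 88.4% across 671. Other copies were closer, such as KRT8P3, picked here for its identity of 97.1% across 1449 columns. KRT8P3 had 16.7 ± 6.08 normalized counts in C4-2B controls and 13.8 ± 3.66 in 22RV1 controls (SD, n = 3 for each).

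Genes whose products join, anchor or regulate keratin filaments were described from 5 lists, and none of their genes was called in either line. Among the other intermediate filament genes, 8 of 15 were tested in C4-2B, 3 with a positive and 5 with a negative log2 change and a median of -0.07, and 12 in 22RV1, 7 positive and 5 negative, with a median of 0.03. VIM, the vimentin of mesenchymal cells, had 41.2 ± 18.7 normalized counts in C4-2B controls and 2238 ± 114 (SD, n = 3 for each) in 22RV1 controls. With 56-mer VIM was at 34.9 ± 15.0 in C4-2B and 2506 ± 123 in 22RV1, a log2 change of 0.16 in 22RV1 with an adjusted limma p of 0.9996. The lamins were the highest of this list in C4-2B, with LMNB2 at 3080 ± 61.7, LMNB1 at 1659 ± 28.4 and LMNA at 1477 ± 4.78 in controls and log2 changes of -0.14, -0.22 and 0.12. With 56-mer, LMNB2 had 2207 normalized counts in C4-2B library 1, but 3014 and 3309 in libraries 2 and 3, where the controls had 3010 to 3126.

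Desmosomes tie keratin filaments to cell junctions through plakins. Of 18 listed desmosome and plakin genes, 12 were tested in C4-2B, 3 with a positive and 9 with a negative change and a median of -0.16, and 13 in 22RV1, 9 positive and 4 negative, with a median of 0.03. JUP, the plakoglobin of the desmosomal plaque, had a mean of 5169 ± 113 in the C4-2B controls and of 5172 ± 188 in the 56-mer libraries (normalized counts, SD, n = 3 for each). PKP3, a plakophilin, had a log2 change of 0.04 in C4-2B. PLEC, the plectin that links filaments to one another, had 5148 and 5213 normalized counts in C4-2B 56-mer libraries 2 and 3 but 1568 in library 1. Its log2 change was -0.29, and 0.29 without C4-2B 56-mer library 1. DSP, the desmoplakin that binds keratins at desmosomes and picked here after its values were seen, had 1379 to 1406 in C4-2B controls and 1114 to 1248 with 56-mer, a log2 change of -0.25 with an adjusted limma p of 0.456. In 22RV1 DSP had a log2 change of 0.07, PLEC of 0.02 and JUP of 0.04.

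Hemidesmosomes attach keratin filaments to the basement membrane. In C4-2B 5 of their 7 listed genes were tested, 3 positive and 2 negative, with a median of 0.02, and in 22RV1 all 7, 2 positive and 5 negative, with a median of -0.04. The tetraspanin CD151 was the highest in both lines, with log2 changes of 0.17 in C4-2B and -0.05 in 22RV1. All 8 genes for keratin binding and turnover were tested in both lines, with 7 positive changes in C4-2B (median 0.05) and 2 in 22RV1 (median -0.05). STUB1, a ubiquitin ligase, was the highest of them in C4-2B with 5647 ± 190 normalized counts in the control libraries and 6211 ± 239 in the 56-mer libraries (SD, n = 3 for each), a log2 change of 0.14 with an adjusted limma p of 0.561.

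Of 16 listed regulators of keratin genes and epithelial identity, 14 were tested in C4-2B, 5 positive and 9 negative, with a median of -0.17, and 15 in 22RV1, 11 positive and 4 negative, with a median of 0.07. GRHL2, a grainyhead factor of epithelial cells, had 894 ± 30.6 normalized counts in C4-2B controls and 2200 ± 103 in 22RV1 controls (SD, n = 3 for each), with log2 changes of 0.10 and 0.07. EHF, an epithelial ETS factor, had a log2 change of -0.21 in C4-2B. ESRP1, an epithelial splicing regulator, had 660 to 714 in C4-2B controls and 541 to 569 with 56-mer, a log2 change of -0.32 with an adjusted limma p of 0.456, and 0.04 in 22RV1. All genes tested had a median of -0.01 in C4-2B and -0.003 in 22RV1.

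**Figure D5:**
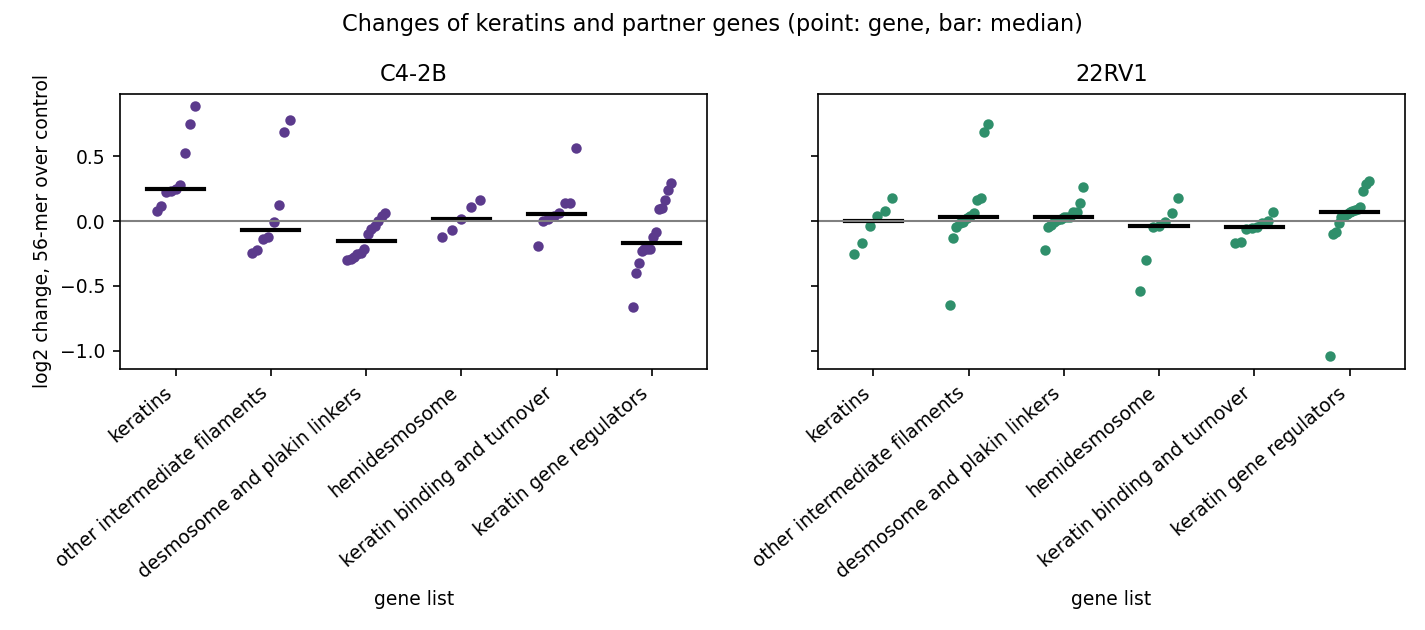
Log2 change of 56-mer over control for the expressed keratins and for the tested genes of 5 partner lists in C4-2B (left) and 22RV1 (right), with a point per gene and a bar at the median. The keratin median is 0.25 in C4-2B and 0.001 in 22RV1, and the partner medians lie between -0.17 and 0.07.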

How the data were processed

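RNA was sequenced from 12 libraries in 4 groups of 3, and groups follow the labels. Replicate numbers follow record order. The authors deposited, per cell line, a table of normalized signal per gene symbol, and the values themselves show that this signal is a read count divided by 1 size factor per library (whole multiples within a tolerance of 0.01, 100% of nonzero values in each library). The submitters' processing notes name DESeq. For the aligner, counting tool, strand use and genome build the entry is "not given in the sources used here". Per the file headers, the deposited comparison tables give a mean signal, a log2 fold change and its error, a Wald score and p-values.

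The tests used limma 3.58.1 in R 4.3.3 with a variance trend and robust estimation. Values were log2 of the normalized count plus 1, and genes needed a value of 10 in 3 or more of 6 libraries, with Benjamini-Hochberg adjustment. Fold changes are on that scale, on which those of low genes can differ from the ratio of the group means. Recovered reads were tested with edgeR 4.0.16 and DESeq2 1.42.0 as alternatives. Other alternatives were quantile normalization, equal totals, other filters, pseudocounts of 0.1 and 10, limma-voom, a shared spread and leaving out each library. After the data were seen, a GC and length correction and other lengths for the KRT8 to KRT18 ratio were added. Lengths are principal transcripts of GENCODE 29. The fit was tested on simulated data, with changes placed only in genes with a mean of at least 50 normalized counts. The shares recovered thus do not cover KRT6C, KRT7, KRT15 and KRT73 in C4-2B or KRT80 in 22RV1, whose means were lower. It recovered 8% of simulated 1.25-fold changes in C4-2B and 20% in 22RV1. For 1.5-fold changes it recovered 42% and 58%, and for 2-fold changes 82% and 92%, in the same order. From each deposited file 1 entry without a symbol, with 0 reads, was left out.

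Members and lists were chosen with earlier results of these data known. Named are every keratin past the filter, the luminal and basal keratins, the highest pseudogene per parent, and in each partner list up to 3 genes with the highest control mean. Errors are SD of 3 libraries or standard errors of the fit. Where cultures are not shown to be separate, p-values measure only the spread between libraries.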

Additional observations from a re-analysis of the deposited data

How the results depend on the processing

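The count of keratins called was 0 in C4-2B and 0 in 22RV1 under each of 19 alternatives, and 0 for the difference between the lines under each of 24. Over all genes these alternatives called 0 to 81 in C4-2B, 0 to 11 in 22RV1 and 0 to 13 for the difference. Where no gene at all was called, as with edgeR in C4-2B, the keratin count could only be 0. The unchanged count therefore says little about keratins in particular. The log2 change of KRT18 in C4-2B stayed positive, from 0.155 to 0.288, with adjusted p from 0.0915 (DESeq2) to 0.776. KRT8 in C4-2B ranged from 0.0228 to 0.14. Correcting for GC content and length turned KRT19 in C4-2B to -0.0091. KRT73 in C4-2B turned to -0.27 with edgeR and with DESeq2. The KRT19 difference between the lines turned to 0.0450 when values were quantile-normalized, to 0.0199 when totals were set equal and to 0.14 when corrected for GC content and length. The cause was not tested. Leaving out each library in turn, the log2 change ranged from -0.25 to 0.69 for KRT15 and from -0.50 to 0.98 for KRT73 in C4-2B. In 22RV1 it ranged from -0.0114 to 0.0770 for KRT18, -0.0401 to 0.32 for KRT7, -0.0922 to 0.0291 for KRT8 and -0.35 to 0.0049 for KRT80, and the KRT19 difference from -0.0574 to 0.0409.

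With a filter of 50 normalized counts, 5 keratins passed in C4-2B. Over the other filters tried the count was 5 to 12 in C4-2B and 5 to 9 in 22RV1. With each library left out in turn it was 8 or 9 in C4-2B and 6 in 22RV1. Without mitochondrially encoded genes keratins held 0.149% of reads in C4-2B controls, 0.163% in C4-2B 56-mer libraries and 0.129% in 22RV1 controls, and with pseudogenes added 0.127% in 22RV1 controls. Per length the luminal share was 96.4% in C4-2B controls, 96.1% in C4-2B 56-mer libraries and 98.5% in 22RV1 controls. The log2 ratio of KRT8 to KRT18 per principal transcript length was -0.21 in C4-2B controls, -0.33 in C4-2B 56-mer libraries, 0.71 in 22RV1 controls and 0.64 in 22RV1 56-mer libraries. Per coding length it was 0.0646, -0.0526, 0.98 and 0.91, and per merged exon length -0.86, -0.98, 0.0549 and -0.0159, in the same order. No paired analysis was possible because replicate numbers here only follow record order, and no culture day or batch is labelled. KRT6C, KRT7, KRT15 and KRT73 in C4-2B rest on 66 to 115 reads over 6 libraries, which limits the precision of their changes.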
